A study of Mus musculus with 6 samples.

Results

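The genes described here are 9 apolipoproteins, lipid transporters, and lipoprotein receptors: Apoe, Apod, Lpl, Abca1, Abcg1, Npc1, Npc2, Lrp1, and Vldlr. They were taken from the table of exonic counts by Ensembl identifier, with the version left off and symbols from the GENCODE annotation of GRCm38. All 9 of the 9 were found among 55401 rows, and all 9 passed the filter on low counts, which kept 22318 genes. Bulk RNA-seq was available for cultured primary Schwann cells (SCs) of 3 samples labelled WT and 3 labelled PB1 -/- (Plxnb1-/- below), taken from the dorsal root ganglia (DRGs) of mice of adult age. The mutant allele, Plxnb1 tm1Matl, carries a gene trap cassette with a transmembrane domain, lacZ, and neo in the Plxnb1 locus in every cell of the animal, on a C57BL/6 background. Both genotypes were grown in the same medium with forskolin, neuregulin, and serum, and both were depleted of fibroblasts with an anti-Thy1 antibody. Both WT and heterozygous littermates served as controls in the study as a whole, and the labels of these libraries say WT. The labels do not say whether the cultures of a genotype come from separate animals, so that p-values measure the spread between these cultures.

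Lipids travel between cells in particles that are coated by apolipoproteins. Cells load cholesterol onto such particles through ABC transporters, take particles up through receptors of the low-density lipoprotein (LDL) receptor family, and release the cholesterol of engulfed particles from lysosomes through NPC2 and NPC1. In peripheral nerve, apolipoproteins E and D are known as products of injured and regenerating nerves, where they take part in reusing the lipid of degraded myelin. Liver X receptors (LXRs), which sense oxidized sterols, are known to switch on Abca1, Abcg1, Apoe, and Lpl in many cell types.

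Values are given as CPM, the count of a gene relative to its library total after edgeR's TMM normalization, and library totals lay between 59252048 and 77280964 counts. At this depth 3 counts, the number taken as detected, correspond to at most 0.0506 CPM, counting error only. A gene was called where edgeR's quasi-likelihood test gave an adjusted p below 0.05 and its log2 fold change exceeded 0.25 in either direction. The targeted gene, Plxnb1, measured 45.4 to 96.4 CPM in WT against 13.1 to 18.6 CPM in Plxnb1-/- SCs (log2 fold change −2.08, standard error 0.25, edgeR adjusted p = 0.0449). SC markers were present in every library, including Sox10, the transcription factor of the lineage, at 432 to 580 CPM, while the SC protein S100b measured between 7.09 and 8.22 CPM. Thy1, the antigen used for depletion, remained at 384 to 652 CPM, highest in WT replicate 2. That culture also stood apart on the first principal component of all tested genes, at −47.4 against −7.52 to 34.0 for the other cultures. The same component separated the genotypes, with the other WT cultures at −3.58 and −7.52 and the Plxnb1-/- cultures at 10.3 to 34.0. Values without WT replicate 2 are given where it decides them. In bulk samples, fewer cells of a type and less RNA per cell cannot be told apart.

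Apoe and Lpl were the members with higher values in every Plxnb1-/- culture than in any WT culture. Apoe was higher by a ratio of 1.24 and Lpl by 1.27, whereas the estimates of the other 7 members lay between 0.93-fold and 1.09-fold and their cultures overlapped. edgeR called 0 of the 9 members at the adjusted threshold, where 0.0358% of all tested genes were called. At an unadjusted p below 0.05 edgeR had 2 of 9, Apoe and Lpl, where 13.7% of all tested genes lie, 6.95% of all being higher in Plxnb1-/- SCs. DESeq2 called 1 of 9, Apoe, where it called 1.5% of all tested genes and 0.69% of all as higher, and limma's voom called 0 of 9. The count of 2 of 9 members without overlap is to be read against 19.7% of all tested genes, so that it is close to the background. The median log2 fold change of the 9 members was 0.05, beside 0.005 for all tested genes.

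**Figure D1:**
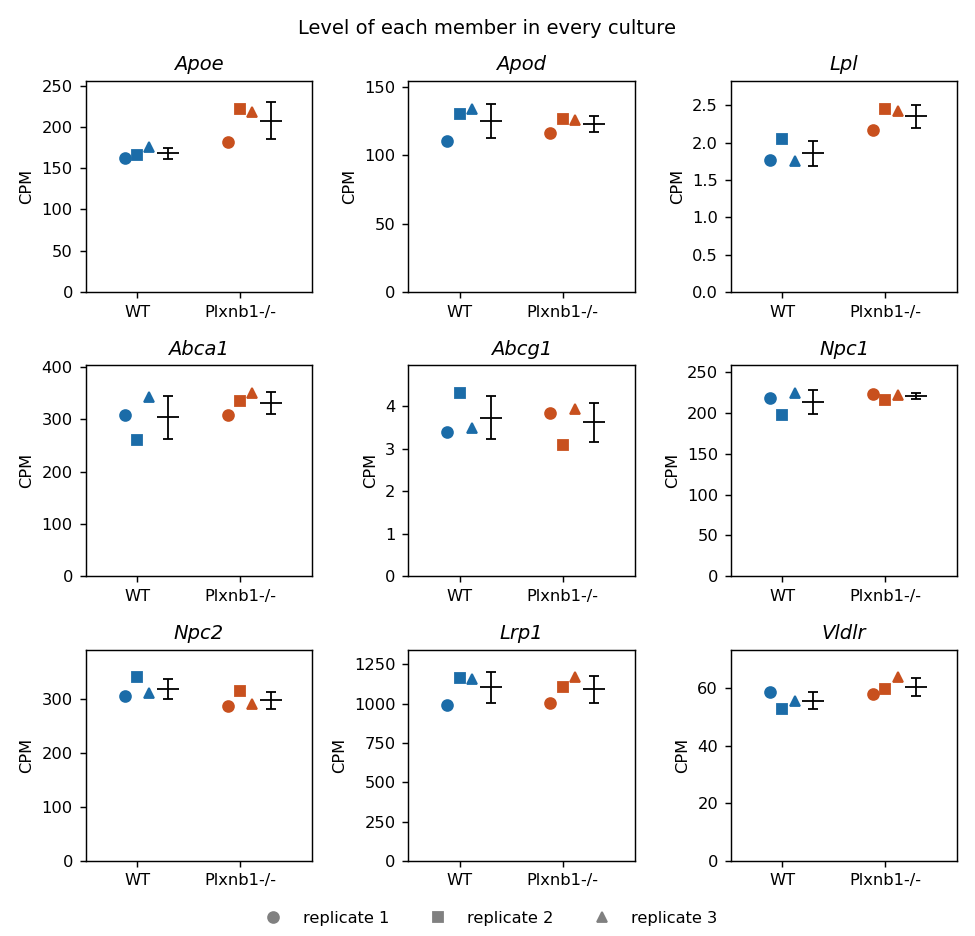
Level of each member in CPM (vertical axes, from 0) in the 3 WT (blue) and 3 Plxnb1-/- (orange) cultures, with the shape of a point giving the replicate number and the black mark the mean with its SD. The orange points lie above all blue points for Apoe and Lpl, and the points of the genotypes overlap for the other 7 members.

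Apoe encodes apolipoprotein E, a ligand of LDL receptor family members and the main lipid carrier made by glia. In the WT cultures its level was 162, 166, and 175 CPM (replicates 1, 2, and 3, an order kept below), while the Plxnb1-/- cultures stood at 182, 222, and 218 CPM. All Plxnb1-/- cultures were above all WT cultures, by 6.87 CPM between the nearest cultures, and Plxnb1-/- replicate 1 lay close to the WT range. The mean of the WT cultures was 168 ± 6.59 CPM, against 208 ± 22.1 CPM for Plxnb1-/- (SD, n = 3). The log2 fold change was 0.31 with a standard error of 0.07, a ratio of 1.24, and its 95% interval ran from 0.14 to 0.47 on the log2 scale (unadjusted p = 0.00266, edgeR adjusted p = 0.270). By unadjusted p, Apoe ranked 220 among the tested genes. DESeq2 called it at a log2 fold change of 0.30 (adjusted p = 0.0162), and so did edgeR when no filter on low counts was applied (adjusted p = 0.0303), whereas the estimate itself hardly moved.

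RefSeq (GRCm38.p6) gives promoter windows for 6 of the 9 members, Apoe, Apod, Abca1, Lrp1, Npc2, and Vldlr. The 250 bases upstream of the start site are shown for Apoe, the member with the lowest p, and for Abca1, a known LXR target whose genotypes overlapped. Capitals mark a TATA box (TATAAA), a GC box (GGGCGG), or an LXR element of the Abca1 type (TGACCG and TAACC with 4 bases of any kind between them). Each was searched on both strands, together with the ideal form of that element (AGGTCA and AGGTCA in the same direction with 4 bases between them). The window of Apoe lies on the minus strand at chr7:19699189-19699438 and that of Abca1 on the minus strand at chr4:53159896-53160145.
Apoe: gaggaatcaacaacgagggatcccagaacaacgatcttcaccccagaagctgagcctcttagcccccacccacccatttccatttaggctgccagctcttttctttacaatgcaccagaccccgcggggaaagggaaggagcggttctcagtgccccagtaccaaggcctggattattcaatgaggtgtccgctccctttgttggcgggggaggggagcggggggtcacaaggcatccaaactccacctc
Abca1: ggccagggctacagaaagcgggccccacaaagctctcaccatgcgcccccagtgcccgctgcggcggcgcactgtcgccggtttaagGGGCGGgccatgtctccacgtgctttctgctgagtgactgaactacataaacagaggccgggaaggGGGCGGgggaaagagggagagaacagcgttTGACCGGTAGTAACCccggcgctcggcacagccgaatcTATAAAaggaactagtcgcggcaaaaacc
The window of Apoe shown holds none of the 4 motifs, and one of the other RefSeq starts of Apoe, inside the gene, has 2 overlapping TATAAA matches, which begin 100 and 96 bases before it. That of Abca1 holds 2 GC boxes, which begin 163 and 97 bases before the start site, the LXR element at 67 bases, and the TATA box at 29 bases before it. Among all 32851 windows, 12.4% hold TATAAA, 32.7% GGGCGG, 0.0122% the Abca1 type of LXR element, and 0.0152% its ideal form. The Abca1 type of element is named after that gene, so that its match in the Abca1 window was given by the choice of motif. These matches describe the letters of the windows and were not compared with any measurement of binding.

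The summed levels of macrophage, SC, and fibroblast markers lay apart between the genotypes beside Apoe. Those of satellite glia markers also lay apart, at 762 to 883 CPM in WT against 906 to 933 CPM in Plxnb1-/- SCs. So did those of sensory neuron markers, at 149 to 163 CPM against 164 to 187 CPM. Of 12 macrophage markers, 12 were higher in Plxnb1-/- SCs and 4 did not overlap; the most abundant were C1qa (9.40 to 14.0 CPM over all cultures) and the receptor Csf1r with 13.5 to 14.7 CPM in WT against 15.6 to 17.1 CPM in Plxnb1-/- SCs. Their summed level ran from 61.0 to 72.5 CPM in WT and from 73.3 to 87.8 CPM in Plxnb1-/- SCs, and none was at 0 in all libraries, with Aif1 below 1 CPM in all. Of 12 SC markers, led by Ncam1 (887 to 990 CPM), 11 were higher and 4 did not overlap, with sums of 3646 to 4232 CPM in WT against 4244 to 4681 CPM in Plxnb1-/- SCs. Of 10 fibroblast markers, led by Col1a1 (4906 to 7095 CPM) and Col1a2 (5037 to 6231 CPM), 9 were lower and 5 did not overlap. Their sums were 17370 to 21470 CPM in WT, WT replicate 2 being the highest, and 15920 to 16680 CPM in Plxnb1-/- SCs. Among all tested genes, 51.5% were higher in Plxnb1-/- SCs. Without overlap, 9.3% of all tested genes were higher and 10.4% lower. edgeR called 0 of the genes in these marker lists, beside 0.0358% of all tested genes. It had 9 SC, 5 macrophage, and 5 fibroblast markers at an unadjusted p below 0.05, where 13.7% of all tested genes lie. DESeq2 called 0, 2, and 1 of the SC, macrophage, and fibroblast markers, beside 1.5% of all tested genes. Without WT replicate 2, 6 of the 10 fibroblast markers were lower and 4 higher. Their median log2 fold change went from −0.16 to −0.05, with 5 lower at an unadjusted p below 0.05 from edgeR in both runs. SC and DRG-derived glia are known to express several of the markers listed for fibroblasts, collagens included.

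Among the Plxnb1-/- cultures, Apoe was lowest in replicate 1, where the macrophage sum was 85.0 CPM, highest in replicate 2, where that sum was highest at 87.8 CPM, and 218 CPM in replicate 3, where that sum was lowest at 73.3 CPM. Among the WT cultures, the macrophage sums were 72.5, 71.0, and 61.0 CPM beside 162, 166, and 175 CPM of Apoe. Within the Plxnb1-/- cultures, the SC sum was lowest in replicate 1, at 4244 CPM, as was Apoe. Within the WT cultures, the SC sums were 4163, 3646, and 4232 CPM, lowest in replicate 2, whereas Apoe was lowest in replicate 1. Expressed as a percentage of the summed counts of the SC markers, Apoe stood at 3.90, 4.56, and 4.14% in WT and 4.29, 4.76, and 4.67% in Plxnb1-/- replicates 1, 2, and 3, so that the genotypes overlapped. As a percentage of the macrophage sum the WT cultures spanned 224 to 287% and the Plxnb1-/- cultures 214 to 298%, again with overlap. As a percentage of the fibroblast sum they stayed apart, at 0.775 to 0.967% in WT and 1.14 to 1.34% in Plxnb1-/- SCs. That separation was given in advance, since every Plxnb1-/- culture had more Apoe and a lower fibroblast sum than any WT culture. These 3 scalings were chosen after seeing the data, and the part of any cell type in the level of Apoe was not tested. Apoe was not scaled by the satellite glia or sensory neuron sums.

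**Figure D2:**
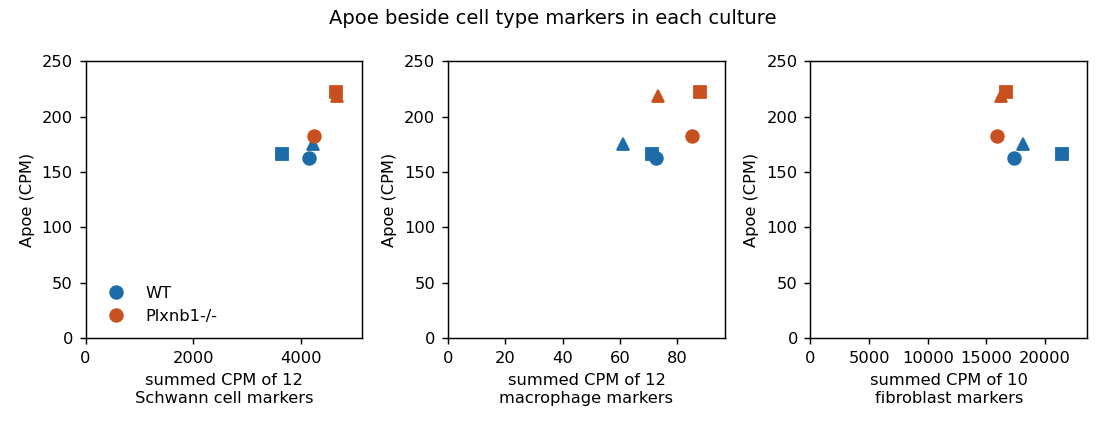
Apoe in CPM (vertical axes) against the summed CPM of 12 SC, 12 macrophage, and 10 fibroblast markers (horizontal axes) in the 6 cultures, with WT in blue, Plxnb1-/- in orange, and circles, squares, and triangles for replicates 1, 2, and 3. The orange points lie higher on all panels, to the right of all blue points for the SC and macrophage sums and to the left for the fibroblast sum.

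Apod encodes apolipoprotein D, a lipocalin that binds small lipids and is known as a strongly induced product of injured nerve. It measured 111, 130, and 134 CPM in WT against 116, 126, and 126 CPM in Plxnb1-/- SCs. The lowest culture was WT replicate 1, and the range of the Plxnb1-/- cultures lay inside that of the WT cultures. The log2 fold change was −0.03 with a 95% interval of −0.19 to 0.14 (edgeR adjusted p = 0.908), so that a change of the size of that of Apoe lies outside the interval. The sign of this estimate depended on single cultures, from −0.10 without WT replicate 1 to 0.03 without WT replicate 3.

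Lpl encodes lipoprotein lipase, which releases fatty acids from circulating particles. It was the least abundant member, with 1.77, 2.05, and 1.75 CPM in WT against 2.17, 2.46, and 2.42 CPM in Plxnb1-/- SCs, from 113 to 178 counts per library. The highest WT culture, replicate 2, lay 0.123 CPM below the lowest Plxnb1-/- culture. Its log2 fold change of 0.34 (standard error 0.13) was the largest of the 9, a ratio of 1.27 with a 95% interval of 1.04 to 1.55 (unadjusted p = 0.0249, edgeR adjusted p = 0.314, DESeq2 adjusted p = 0.297). No tool called it. Divided by the SC or the macrophage sum, the cultures of the genotypes overlapped for Lpl as they did for Apoe.

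Abca1 and Abcg1 encode transporters that load cholesterol onto lipid-poor and onto mature particles, respectively. Abca1 measured 308, 261, and 342 CPM in WT against 308, 334, and 350 CPM in Plxnb1-/- SCs. WT replicate 2 was the lowest culture, and the other 2 WT cultures lay within or near the Plxnb1-/- range. The log2 fold change was 0.12 with a 95% interval of −0.08 to 0.33 (edgeR adjusted p = 0.574), and it was 0.03 without WT replicate 2, 0.22 without WT replicate 3, and 0.08 without Plxnb1-/- replicate 3. Without WT replicate 3 the cultures of Abca1 did not overlap, beside 30.8% of all genes. Abcg1, far scarcer in these libraries, stood at 3.39, 4.31, and 3.49 CPM in WT against 3.83, 3.09, and 3.92 CPM in Plxnb1-/- SCs. Its log2 fold change was −0.04 with the widest interval of the 9, −0.35 to 0.27 (edgeR adjusted p = 0.923).

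Npc1 and Npc2 encode the membrane and the soluble protein that pass cholesterol out of the lysosome. Npc1 measured 218, 197, and 224 CPM in WT against 222, 216, and 222 CPM in Plxnb1-/- SCs, a spread of 1.64% around the mean in the latter. The log2 fold change of Npc1 was 0.05 with the narrowest interval of the 9, −0.07 to 0.17 (edgeR adjusted p = 0.729). Exons of Npc1 overlap those of Rmc1 and Gm15956 on the opposite strand by 601 bases, and the strand setting of the counting is not given in the sources used here. Npc2 measured 305, 341, and 312 CPM in WT against 287, 316, and 292 CPM in Plxnb1-/- SCs. It had the lowest estimate of the 9, a log2 fold change of −0.10 with a 95% interval of −0.23 to 0.03 (edgeR adjusted p = 0.475), with Plxnb1-/- replicate 2 inside the WT range. Without WT replicate 2, its highest culture, this estimate was −0.05. Divided by the SC or by the macrophage sum, Npc2 was the only member of 9 whose cultures did not overlap, with lower values in Plxnb1-/- SCs, beside 29.1% (SC) and 32.9% (macrophage) of all genes without overlap, whereas divided by the fibroblast sum its Plxnb1-/- values were the higher ones.

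Lrp1 and Vldlr encode receptors of the LDL receptor family that bind apolipoprotein E, LRP1 with many other ligands besides. Lrp1 had the most counts of the members, with 991, 1162, and 1155 CPM in WT against 1001, 1102, and 1166 CPM in Plxnb1-/- SCs. Its cultures overlapped almost fully, with a log2 fold change of −0.02 and a 95% interval of −0.19 to 0.15 (edgeR adjusted p = 0.944). Vldlr measured 58.8, 52.8, and 55.6 CPM in WT against 57.8, 59.8, and 63.8 CPM in Plxnb1-/- SCs. WT replicate 1 lay above Plxnb1-/- replicate 1, and the log2 fold change of Vldlr was 0.12 with a 95% interval of −0.01 to 0.24 (edgeR adjusted p = 0.384).

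**Figure D3:**
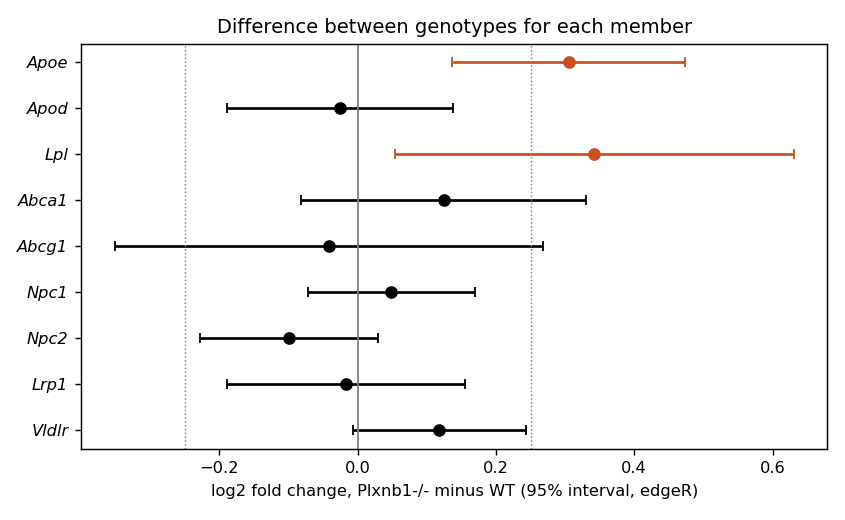
Log2 fold change of each member, Plxnb1-/- minus WT, from edgeR (points) with its 95% interval (bars), where dotted lines mark the fold change cutoff of 0.25 in either direction and orange marks the members whose cultures did not overlap. The intervals of Apoe and Lpl lie above 0, and those of the other 7 members include 0.

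Divided by the length of the exons, the members covered a wide range of levels. The order of the mean over the 6 cultures was Apoe at 87.8 CPM per kb, Lrp1 at 61.9, Npc2 at 56.8, Apod at 48.1, Abca1 at 30.6, Npc1 at 19.1, Vldlr at 5.77, Abcg1 at 0.503, and Lpl at 0.201 CPM per kb. Neighbors in this order did not overlap over the 6 cultures, except Lrp1 (55.9 to 65.8 CPM per kb) and Npc2 (52.7 to 62.7 CPM per kb). Apoe was first in WT as well as in Plxnb1-/- SCs, at 78.5 ± 3.08 and 97.1 ± 10.4 CPM per kb (SD, n = 3). The aligner used by the authors does not span introns, so that reads across exon junctions could be lost, more so in genes with short exons. The exons averaged 201 bases in Lrp1 and 207 bases in Abca1, against 428 bases in Apoe and 1360 bases in Npc2, and this order was not corrected for it.

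**Figure D4:**
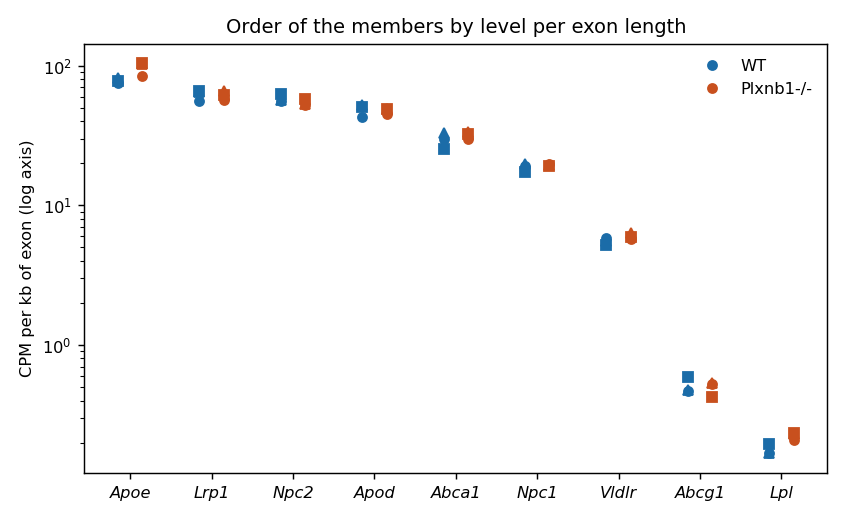
Level of the 9 members in CPM per kb of exon (vertical log axis), ordered by the mean of the 6 cultures, with WT in blue, Plxnb1-/- in orange, and 1 point per culture. Levels run from 87.8 CPM per kb for Apoe to 0.201 CPM per kb for Lpl, a far wider range than the distance between genotypes for any member.

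The 9 genes lie on 9 different chromosomes, and none lies on chromosome 9, which carries Plxnb1. In GRCm38, Apoe lies on the minus strand of chromosome 7 from 19696109 to 19699188, and Lpl on the plus strand of chromosome 8 from 68880491 to 68907448. Apart from Npc1, the exons of no member overlap another annotated gene.

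Other genes of lipoprotein transport were read from 8 lists with 97 genes besides the members, of which 86 were tested. Plxnb1-/- SCs had 60 of them higher and 26 lower, beside 51.5% higher among all tested genes, with a median log2 fold change of 0.09. Without WT replicate 2, 59 were higher and 27 lower, beside 52.8% higher among all tested genes, and the median was 0.06. edgeR called 0 of the 86, with 18 higher and 4 lower at an unadjusted p below 0.05. At that threshold lie 13.7% of all tested genes, 6.95% of all being higher. Without WT replicate 2, 10 of the 86 were higher and 4 lower at that threshold, beside 1115 and 916 of all 22318 genes. DESeq2 called 4 of the 86, Abca8a and Rxrg higher and Lipg and Arl4c lower, where it called 1.5% of all tested genes. Cultures did not overlap for 15 higher genes (9.3% of all tested genes) and 5 lower genes (10.4% of all tested genes).

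The other lipid transporters of the ABC families A, G, and D form the list with the most genes without overlap. Of 15 tested, 11 were higher and 4 lower (median log2 fold change 0.24, and 0.16 without WT replicate 2). Without overlap, 9 were higher, beside 9.3% of all tested genes. Abca8a measured 8.16, 9.14, and 10.1 CPM in WT against 13.2, 11.8, and 15.3 CPM in Plxnb1-/- SCs, a log2 fold change of 0.55 (edgeR adjusted p = 0.255, DESeq2 adjusted p = 0.00146). Abca6 followed at 0.57 (edgeR adjusted p = 0.266). Abca2, a transporter known from myelinating glia, had a log2 fold change of 0.24 (edgeR adjusted p = 0.296) and was chosen after its values were seen. On the lower side, the urate and drug exporter Abcg2 had −0.20 (edgeR adjusted p = 0.385, with −0.12 to −0.31 when single cultures were left out), and Abca12 stood below 0.5 CPM in all libraries. Abca8a, Abca6, and relatives are similar in sequence, so that their counts may not be independent.

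Other apolipoproteins were nearly absent from these cultures. Of 13, 7 passed the filter, and of these 5 were higher and 2 lower (median log2 fold change 0.26). Without WT replicate 2, 4 were higher and 3 lower (median 0.08), and without Plxnb1-/- replicate 2 the median was 0.10. At an unadjusted p below 0.05 from edgeR there were 0 of the 7. The highest was Apoh at 1.31 to 1.92 CPM (log2 fold change 0.29, edgeR adjusted p = 0.408), followed by Clu, known as apolipoprotein J, at 0.519 to 1.03 CPM (−0.18, edgeR adjusted p = 0.842). Apoc2 (0.46, edgeR adjusted p = 0.463) and Apoa2 (−0.37, edgeR adjusted p = 0.607, but −0.08 without WT replicate 2) measured below 1 CPM in all libraries.

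Other members and regulators of the LDL receptor family had 11 of 14 tested genes higher and 3 lower (median log2 fold change 0.09, and 0.05 without WT replicate 2 or 0.04 without Plxnb1-/- replicate 3). The Wnt coreceptor Lrp6 had a log2 fold change of 0.12 without overlap (edgeR adjusted p = 0.342) and Lrp4 one of 0.28 (edgeR adjusted p = 0.344), which was 0.16 without WT replicate 2. On the lower side, Lrp12 had −0.03 (edgeR adjusted p = 0.809). Of 7 scavenger receptors, 6 were higher and 1 lower (median 0.12), led by Stab1 (0.26, edgeR adjusted p = 0.337) and the fatty acid receptor Cd36 (0.39, edgeR adjusted p = 0.400, but 0.21 without Plxnb1-/- replicate 1 and 0.24 without WT replicate 3), with Stab2 below 0.3 CPM in all libraries. Stab1 and Cd36 are also known from macrophages.

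Lipases and partners of LPL were the list with the most lower genes, 7 of 11 against 4 higher (median log2 fold change −0.11, and −0.03 without WT replicate 2). Endothelial lipase, Lipg, measured 13.6, 13.6, and 11.4 CPM in WT against 8.92, 9.84, and 8.28 CPM in Plxnb1-/- SCs, all below WT (log2 fold change −0.51, standard error 0.10, edgeR adjusted p = 0.228, DESeq2 adjusted p = 8.26e-04). The monoacylglycerol lipase Mgll had −0.34 without overlap (edgeR adjusted p = 0.286), and −0.23 without WT replicate 2. The triglyceride lipase Pnpla2 had 0.12 (edgeR adjusted p = 0.350) and the lipase maturation factor Lmf2 0.09 (edgeR adjusted p = 0.421). Gpihbp1, the endothelial anchor of LPL, was chosen after its values were seen and stood below 0.3 CPM in all libraries.

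In the list for lysosomal sterol egress and sterol transfer, which holds the partners of Npc1 and Npc2, 12 of 15 tested genes were higher and 3 lower (median log2 fold change 0.04), and none was without overlap. The sterol carrier Stard4 had 0.20 (edgeR adjusted p = 0.325) and Gramd1b 0.28 (edgeR adjusted p = 0.369), while the cholesterol esterifying enzyme Soat1 had −0.10 (edgeR adjusted p = 0.498) and Osbp −0.03 (edgeR adjusted p = 0.751). Without WT replicate 2, Gramd1b had 0.13 and Soat1 −0.04. Among 10 genes that sense sterols, 9 were higher and 1 lower (median 0.10). The retinoid X receptor Rxrg, an LXR partner, stood at 2.05, 1.23, and 1.33 CPM in WT and ranged from 2.12 to 3.33 CPM in Plxnb1-/- SCs (log2 fold change 0.92, edgeR adjusted p = 0.273, DESeq2 adjusted p = 0.0143), with Plxnb1-/- replicate 1 close to WT replicate 1. Rxra had 0.11 without overlap (edgeR adjusted p = 0.310) and Rxrb −0.07 (edgeR adjusted p = 0.650). The LXRs themselves, chosen after their values were seen, measured 62.4 to 69.4 CPM for Nr1h2 and 1.01 to 1.56 CPM for Nr1h3, with log2 fold changes of 0.01 (edgeR adjusted p = 0.955) and 0.21 (edgeR adjusted p = 0.669).

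Among other known LXR targets, 5 of 10 were higher and 5 lower (median log2 fold change 0.04), with 3 of the 10 also counted in the lists above. The desaturase Scd1 had a log2 fold change of 0.21 without overlap (edgeR adjusted p = 0.286), and Srebf1, the regulator of fatty acid synthesis, had 0.15 (edgeR adjusted p = 0.356). Arl4c measured 82.0, 85.6, and 74.1 CPM in WT against 64.3, 64.6, and 52.3 CPM in Plxnb1-/- SCs, without overlap (log2 fold change −0.42, standard error 0.09, edgeR adjusted p = 0.256, DESeq2 adjusted p = 0.00228). The lipid droplet coat gene Plin2 had −0.30 without overlap (edgeR adjusted p = 0.298). WT replicate 2 had the most Plin2, at 305 CPM against 228 and 238 CPM in the other WT cultures, and without it the estimate was −0.15, while that of Srebf1 was 0.10. Of the 4 members known as LXR targets, Apoe and Lpl were higher without overlap and Abca1 and Abcg1 overlapped.

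**Figure D5:**
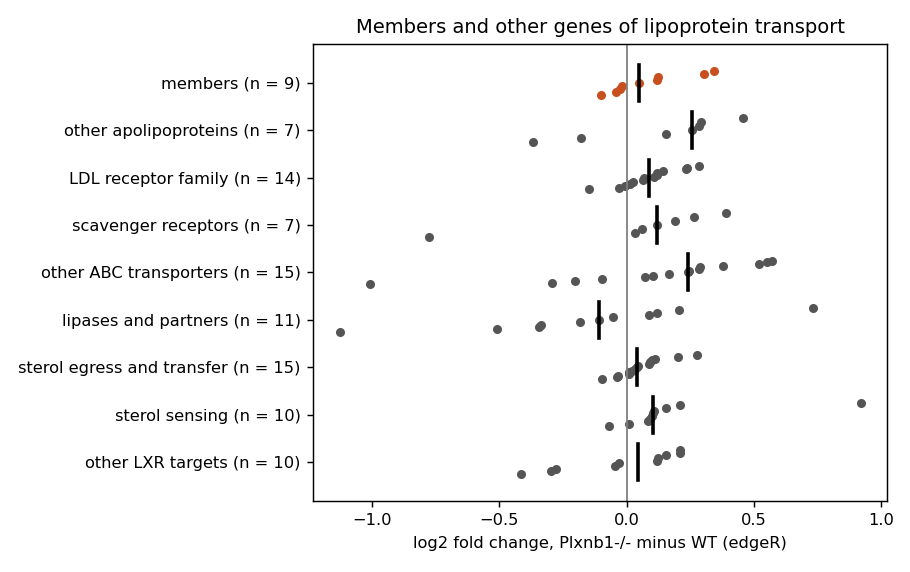
Log2 fold changes, Plxnb1-/- minus WT, of the 9 members (orange) and of the tested genes in each list of lipoprotein transport (grey), 1 point per gene, with a black bar at the median of each list. Medians run from −0.11 for lipases and partners to 0.26 for other apolipoproteins, with 0.05 for the members. Without WT replicate 2, the medians were −0.03 for lipases and partners and 0.08 for other apolipoproteins. Of the genes shown, 3 appear in more than 1 list.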

How the data were processed

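Per the labels and the study's methods, the authors trimmed reads of 6 poly(A)-selected, stranded libraries with Trim Galore 0.6.5, aligned them with Bowtie2 2.4.1 to mm10, removed duplicates with SAMtools 1.10, and deposited counts per gene on exons from featureCounts (GENCODE vM25), not normalized. A table of FPKM values was deposited as well, whose length is the span of the gene in 100% and the exon length in at most 11.0% of the genes compared (within 1%); levels per kb were therefore computed here from counts and exon length. Genes were named by GENCODE M21.

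The tests kept each gene that reached 2 counts in 5 or more of the 6 libraries. edgeR 4.0.16 (TMM, quasi-likelihood test in its older form, no term beside genotype), run in R 4.3.3, was the main test, with Benjamini-Hochberg adjustment over all tested genes, and its intervals use the standard error and the moderated degrees of freedom. The study names DESeq2, which was run as an alternative (version 1.42.0), as was limma 3.58.1. FPKM entered as log2(FPKM + 0.1) and log2(FPKM + 1). Scripts were tested on simulated data. Depth ranged from 59252048 to 77280964 counts. The floor of 3 counts covers counting error only, and the reads carry no molecular identifiers. The 95% intervals of fold changes come from edgeR's fit, which includes the spread between cultures.

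The members, gene lists, and marker lists were chosen with earlier results of these data known. From each list, the 2 genes with the lowest p in each direction were named, and some genes that this rule gives are not reported here. Tables were made with Python 3.11.15 and pandas 2.3.3.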

Additional observations from a re-analysis of the deposited data

How the results depend on the processing

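Each genotype has 3 cultures, and Lpl and Abcg1 rest on 113 to 300 counts a library. The number of genes called by edgeR, 8, became 296 with no filter on low counts, 335 with DESeq2, 5 with a replicate block, 3 with limma on log2(FPKM + 0.1) or log2(FPKM + 1), 12 with the former and no filter on low values, and 4 to 25 with each culture left out, 25 without WT replicate 2, 5 without Plxnb1-/- replicate 1, and 4 without Plxnb1-/- replicate 2 or 3. The number of members called, 0, became 1 (Apoe) with no filter on low counts and with DESeq2, and stayed at 0 in the other alternatives, the 6 with a culture left out included. The number of other listed genes called, 0, became 4 with no filter and with DESeq2, and was 0 to 0 with a culture left out. Without a culture, 2 to 4 members did not overlap, 4 without WT replicate 1, where 35.0% of all genes did not overlap. Divided by the summed SC, macrophage, or fibroblast markers, 1, 1, and 6 members did not overlap, beside 29.1%, 32.9%, and 40.4% of all genes. With the fibroblast sum, the lack of overlap was given in advance for Apoe and Lpl. Apoe kept its sign in every alternative run, from 0.25 to 0.39 with a culture left out (adjusted p from edgeR between 0.108 and 0.673) and from 0.30 to 0.31 in the others (adjusted p between 0.0162 and 0.582). Lpl ranged from 0.30 to 0.42 with a culture left out, and was 0.03 on log2(FPKM + 1), a scale that shrinks low genes. Leaving out WT replicate 2 moved the estimates of 17 of 39 named genes by over 1.5 times, and leaving out another culture those of 4 to 9; counts and medians of lists without a culture were added after seeing the data. Estimates changed sign only with a culture left out. Those near 0 were Apod (−0.10 to 0.028), Abcg1 (−0.10 to 0.075), Lrp1 (−0.087 to 0.038), and Npc1 (−0.0019 to 0.088). The other was Clu (−0.53 to 0.0053), with −0.18 in the main run. Of 701 combinations of a named gene and an alternative, 680 kept sign and call, 11 changed sign, and 10 gained a call. Replicate numbers are shared by the genotypes, but same-numbered cultures did not deviate together (r across genes, which are not independent, −0.02, 0.01, and 0.07), so that the replicate block, in which 0 members were called, is no pairing. Why the calls of Apoe differ between filters and tools was not tested.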

Other observations

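Markers of other cells of the ganglion were measured beside the members. Of 8 sensory neuron markers, Plxnb1-/- SCs had 7 higher and 1 lower, with sums of 149 to 163 CPM in WT against 164 to 187 CPM in Plxnb1-/- SCs, most of it from Tubb3 (127 to 153 CPM) and Prph (8.36 to 16.8 CPM), and with Rbfox3 below 1 CPM in all libraries. Of 3 satellite glia markers, 3 were higher, with sums of 762 to 883 CPM in WT against 906 to 933 CPM in Plxnb1-/- SCs, most of it from Kcnj10 (639 to 798 CPM) and Glul (63.3 to 69.3 CPM). Of 7 endothelial markers, 2 were higher and 5 lower, with sums of 81.3 to 106 CPM in WT against 85.6 to 91.8 CPM in Plxnb1-/- SCs, led by Cdh5 (51.6 to 68.0 CPM) and Flt1 (15.5 to 19.8 CPM), and with Tek below 1 CPM in all libraries. Without Plxnb1-/- replicate 3, 5 of the 8 sensory neuron markers were higher and 3 lower. Their median log2 fold change then went from 0.26 to 0.06. edgeR called 0 genes of these 3 lists and DESeq2 called 0. At an unadjusted p below 0.05 from edgeR, 1 endothelial and 1 satellite glia marker were higher, beside 6.95% of all tested genes. The part of these cells in the levels of the members was not tested.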
